A study of Mus musculus with 23 samples.

Results

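The 38 genes described here are a list of genes that type I interferon is known to induce, chosen by name: the nucleic acid sensors, transcription factors, ISG15 enzymes, oligoadenylate synthetases, IFIT proteins and other antiviral effectors of that response. They were followed in fat tissue next to a breast tumor, across lean and obese mice given an antibody to PD-1 or its isotype control. All 38 were among the 47311 genes with a summed value, and all 38 were among the 19882 that passed the filter on low counts and were tested.

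Type I interferons are secreted proteins that bind a receptor made of IFNAR1 and IFNAR2. The kinases JAK1 and TYK2 then activate the complex ISGF3, which holds STAT2 and IRF9, and this complex binds an interferon-stimulated response element (ISRE) in the promoters of its target genes. Many of the targets sense or block viral RNA, and IRF7, itself a target, drives further interferon production. Fat tissue holds fat cells, fibroblasts, vessels and macrophages that can all carry out this response, and the inguinal mammary fat pad also encloses a lymph node.

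All samples were mammary fat pad beside a tumor of E0771-luciferase cells (a mouse mammary carcinoma line of C57BL/6 origin, here with a luciferase reporter) in female C57BL/6J mice, so every group, controls included, carried the tumor. Each mouse had 250000 of these cells, in 25% matrigel, placed in mammary gland 4. The labels define obese mice by a high-fat diet (60% kcal from fat) and lean mice by a low-fat diet (10% kcal from fat). The treatment text, which is the same for every sample, names only the high-fat food, from 8 to 26 weeks of age. Mice were given 200 µg of anti-PD-1, which blocks an inhibitory receptor on T cells, or of IgG2a, its isotype control, into the peritoneum every 3 days from day 3 after the cells until day 21. There were 5 libraries of lean mice with each antibody, 5 of obese mice with IgG2a and 8 of obese mice with anti-PD-1. The labels do not say in words that each library came from a separate mouse, and if some did not, the p-values measure only the spread between these samples.

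Libraries held 49438121 to 77369057 estimated counts, and levels below are CPM (counts scaled to library size), unless they are given as TPM. Library numbers only name the libraries. Genes with at least 10 counts were fewest in lean anti-PD-1 4 (14801, next 16687 in obese anti-PD-1 6). Fat cell markers (10 genes) summed to 6474 to 58821 CPM, so the labelled tissue was present in each library. The libraries fell apart by the 10 B cell markers into 11 in which those genes were high and 12 in which they were low, here termed with and without B cell genes. The summed level of the B cell markers was 509 to 3396 CPM in the first set and 87.5 to 302 CPM in the second. The set with B cell genes held 4 of 5 lean IgG2a libraries (all but 5), 3 of 5 lean anti-PD-1 (1, 3 and 5), 2 of 5 obese IgG2a (1 and 3) and 2 of 8 obese anti-PD-1 (3 and 4). Markers of skeletal muscle were highest in 1 lean IgG2a library and in lean anti-PD-1 2 (2842 and 2677 CPM). The tumor and cycling marker Hmga2 stood at 94.2 and 170.0 CPM in obese IgG2a 2 and 5, at 19.0 in obese IgG2a 4 and at no more than 5.84 elsewhere. The liver gene Alb was at 6363 CPM in obese IgG2a 5.

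ISRE letters were frequent around the start sites of these genes, mostly before but in some genes only after the start. RefSeq windows of 300 bases (250 before to 50 after the start, build GRCm38.p6) were at hand for 29 of the 38 genes, which leaves out Dhx58, Zbp1, Usp18, Oas2, Mx1, Mx2, Parp9, Parp14 and Rtp4. The ISRE core GAAANNGAAA, searched on both strands and counted anew where matches overlapped, was present in 16 of the 29 (55.2%), against 3.99% of all 27025 genes with a window. The letters TTCNNNGAA of the interferon gamma-activated sequence (GAS) were present in 6 of the 29 (20.7%), against 9.55% of all genes. Both motifs were searched apart, and a base could count for either. A match is a match of letters in this window and was not tested as a bound site.

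The windows printed next are those of some of the members on which the results below turn. The capitals mark every ISRE match, in either orientation, and each is written on the strand of its gene. Isg15 lies at chr4:156200769-156201068 (minus strand), Ifit1 at chr19:34640639-34640938 (plus strand), Ifit3 at chr19:34583279-34583578 (plus strand) and its close copy Ifit3b at chr19:34607707-34608006 (plus strand). These 4 were among the members most raised in 1 lean anti-PD-1 library. So were Oas1g, whose window holds matches, and Ifi44 and Oasl2, whose windows hold none, all not printed. Bst2 lies at chr8:71537423-71537722 (minus strand), Oas3 at chr5:120777610-120777909 (minus strand), Trim30a at chr7:104465144-104465443 (minus strand) and Ifih1 at chr2:62646206-62646505 (minus strand). The last 3 differed between libraries with and without B cell genes, as did Bst2. Ifit2 lies at chr19:34550444-34550743 (plus strand), rose in obese IgG2a mice, and neither of its 2 windows (the first is printed) holds an ISRE match.
Isg15: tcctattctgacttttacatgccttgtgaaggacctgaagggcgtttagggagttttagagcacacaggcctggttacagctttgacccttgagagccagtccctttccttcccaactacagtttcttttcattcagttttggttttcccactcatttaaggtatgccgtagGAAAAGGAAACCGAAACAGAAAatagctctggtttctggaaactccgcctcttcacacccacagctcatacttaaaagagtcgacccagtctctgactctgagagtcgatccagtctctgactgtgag
Ifit1: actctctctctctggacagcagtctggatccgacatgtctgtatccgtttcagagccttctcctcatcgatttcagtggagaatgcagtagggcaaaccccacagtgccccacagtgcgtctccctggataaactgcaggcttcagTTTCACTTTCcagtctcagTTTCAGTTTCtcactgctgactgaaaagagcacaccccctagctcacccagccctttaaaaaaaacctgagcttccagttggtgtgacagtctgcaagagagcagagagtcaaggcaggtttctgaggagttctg
Ifit3: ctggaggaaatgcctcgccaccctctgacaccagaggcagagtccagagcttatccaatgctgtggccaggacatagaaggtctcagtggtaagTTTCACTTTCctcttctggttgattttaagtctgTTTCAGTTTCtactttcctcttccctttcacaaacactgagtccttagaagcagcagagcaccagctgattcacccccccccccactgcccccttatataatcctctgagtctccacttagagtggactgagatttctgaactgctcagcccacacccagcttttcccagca
Ifit3b: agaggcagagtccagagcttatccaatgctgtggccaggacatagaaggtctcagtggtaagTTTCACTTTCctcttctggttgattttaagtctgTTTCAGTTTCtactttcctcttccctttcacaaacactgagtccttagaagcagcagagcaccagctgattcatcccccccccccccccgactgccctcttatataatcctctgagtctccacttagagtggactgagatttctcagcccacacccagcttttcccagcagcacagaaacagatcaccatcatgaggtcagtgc
Bst2: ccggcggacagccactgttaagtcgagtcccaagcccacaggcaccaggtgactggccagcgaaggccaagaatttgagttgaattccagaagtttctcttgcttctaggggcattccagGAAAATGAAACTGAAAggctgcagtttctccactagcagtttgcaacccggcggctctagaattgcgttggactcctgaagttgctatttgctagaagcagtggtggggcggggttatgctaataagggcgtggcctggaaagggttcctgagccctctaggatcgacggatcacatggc
Oas3: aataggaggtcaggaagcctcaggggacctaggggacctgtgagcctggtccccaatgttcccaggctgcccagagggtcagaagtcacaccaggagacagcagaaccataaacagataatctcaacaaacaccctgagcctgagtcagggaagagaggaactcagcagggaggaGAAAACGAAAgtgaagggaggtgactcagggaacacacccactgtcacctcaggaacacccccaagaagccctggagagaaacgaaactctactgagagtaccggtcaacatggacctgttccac
Trim30a: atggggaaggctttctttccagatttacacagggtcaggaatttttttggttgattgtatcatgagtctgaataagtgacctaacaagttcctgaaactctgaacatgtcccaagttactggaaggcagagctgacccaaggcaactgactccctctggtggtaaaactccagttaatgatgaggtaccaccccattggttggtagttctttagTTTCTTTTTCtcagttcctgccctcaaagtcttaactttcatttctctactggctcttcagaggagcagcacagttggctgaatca
Ifih1: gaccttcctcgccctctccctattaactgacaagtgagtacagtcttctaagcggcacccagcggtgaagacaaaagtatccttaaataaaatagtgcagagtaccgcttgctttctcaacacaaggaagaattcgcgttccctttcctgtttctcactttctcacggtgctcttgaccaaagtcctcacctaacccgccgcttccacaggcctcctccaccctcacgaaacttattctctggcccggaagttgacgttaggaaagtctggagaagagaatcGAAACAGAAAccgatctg
Ifit2: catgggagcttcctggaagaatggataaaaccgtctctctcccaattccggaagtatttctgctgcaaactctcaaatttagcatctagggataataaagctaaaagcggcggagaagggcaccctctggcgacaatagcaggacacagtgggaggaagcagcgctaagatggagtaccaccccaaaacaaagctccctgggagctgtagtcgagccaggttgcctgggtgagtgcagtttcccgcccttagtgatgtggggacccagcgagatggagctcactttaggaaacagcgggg

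In Isg15 the window held 3 overlapping matches, whose first bases lie 78, 72 and 66 bases before the start. Oas3 and Trim30a held 1 match each before the start (75 and 36 bases) and Ifih1 held 1, 32 bases after it. Trim30a has a second window, not printed, with a match 2 bases after its start. Ifit1 held 2 matches, 104 and 85 bases before the start, both in the reverse orientation. Ifit3 and Ifit3b carried the same pair of matches as Ifit1, TTTCACTTTC and TTTCAGTTTC, at 156 and 122 bases before the start of Ifit3 and at 188 and 154 before that of Ifit3b. Bst2 held an overlapping pair 130 and 124 bases before its start. No match was found in the windows of Irf7, Irf9, Herc6, Trim25, Oasl1, Oasl2, Cmpk2, Dtx3l, Ifi35, Ifi44, Xaf1 or Samd9l.

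Per transcript length, the membrane proteins led. Ifitm3, which blocks viral entry at membranes, averaged 284 ± 116 TPM (SD, n = 23 libraries), and Bst2 (tetherin), which holds budding virus on the cell surface, averaged 197 ± 90.5 TPM. Irf7 (50.5 ± 23.2 TPM), Ifi35 (50.0 ± 11.9) and the ubiquitin-like modifier gene Isg15 (41.0 ± 28.2) followed, and these 3 lay within each other's spread. At the other end stood the GTPase genes Mx1 (2.72 ± 2.75 TPM) and Mx2 (2.06 ± 1.95) and the helicase gene Ddx60 (1.92 ± 1.32), which likewise lay within each other's spread. The C57BL/6 strain is known to carry a defective Mx1 allele. Members also differed in how much they varied between libraries. The highest CPM of the 23 libraries was 78.5 times the lowest for Mx1, 43.2 times for Oas3, 35.6 times for Samd9l and 28.0 times for Oas1g, but only 1.96 times for the ubiquitin ligase gene Trim25.

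**Figure D1:**
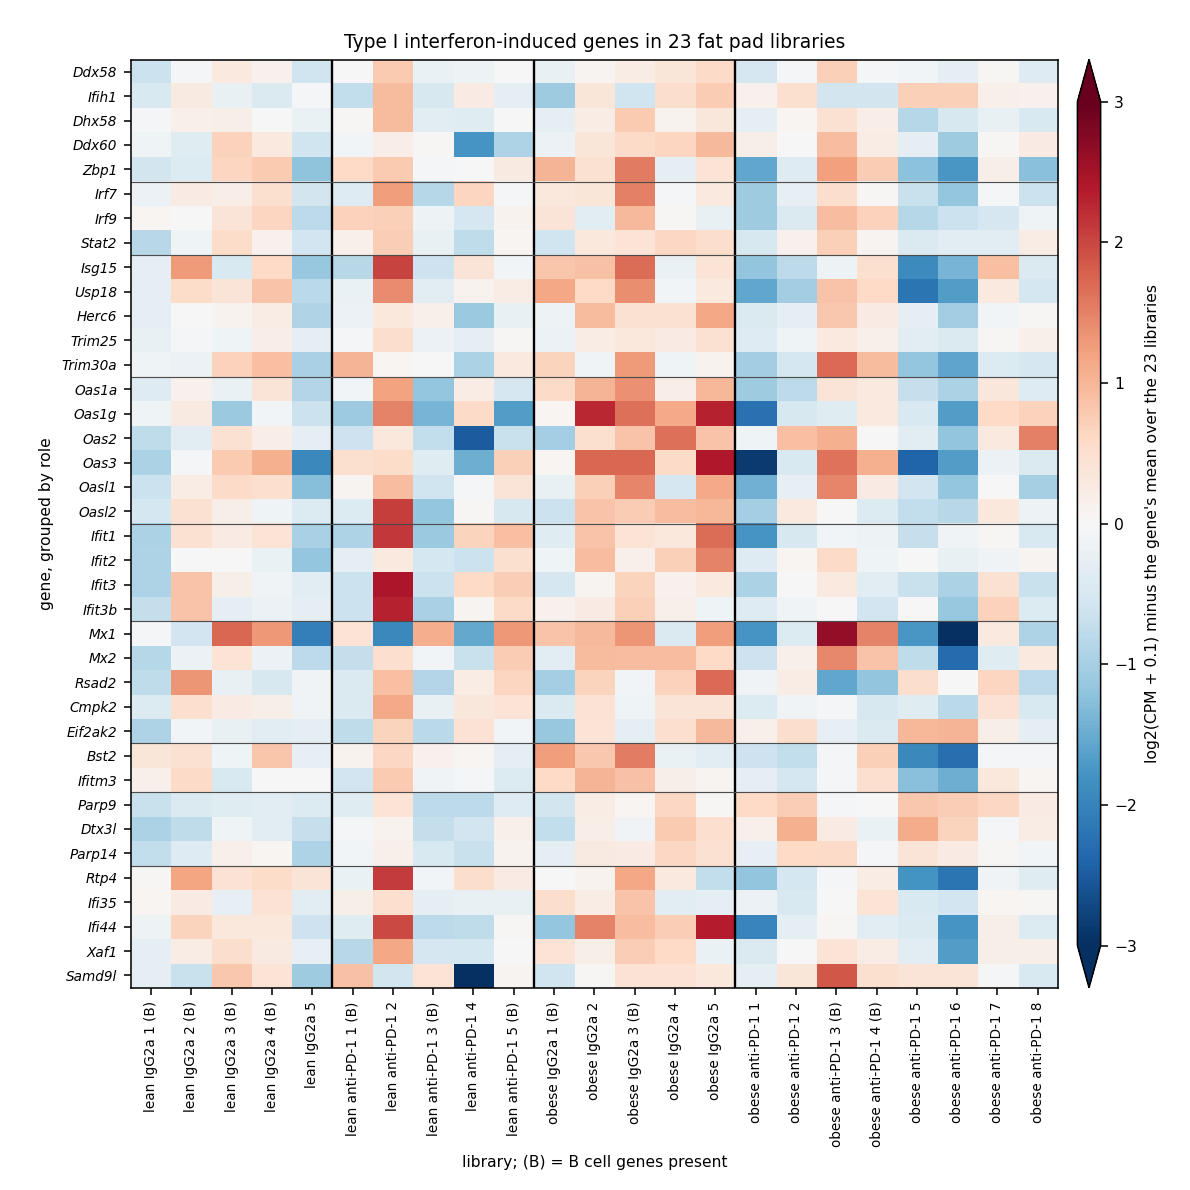
Level of each of the 38 genes (rows, grouped by role) in each of the 23 libraries (columns, grouped by diet and antibody), as log2(CPM + 0.1) minus that gene's mean over all libraries; (B) marks the 11 libraries with B cell genes. Lean anti-PD-1 2 was the highest of its 5 libraries for 31 of the 38 genes, while Mx1 was low there (0.914 CPM).

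The first comparison asked how the response genes stood in obese against lean mice without PD-1 blockade. Under IgG2a, 37 of the 38 members had a fold change above 0 (57.4% of all genes tested did), and 1, Ifit2, passed edgeR's quasi-likelihood test at a Benjamini-Hochberg adjusted p under 0.05, here termed called (5.79% of all genes did, 2.68% higher and 3.12% lower). The median log2 fold change of the members was 0.51, beside 0.12 for all genes tested. At an unadjusted p under 0.05 the count was 7 of 38, beside 19.8% of all genes, so the share that passed either threshold was near or below the background. No member's groups were free of overlap, beside 1.83% of all genes higher and 4.42% lower without overlap. Cell markers differed in the same comparison. Called higher in obese mice were 3 of 10 macrophage (median log2 difference 0.71), 1 of 6 monocyte (1.48), 1 of 7 neutrophil (4.02), 2 of 7 plasma cell (0.14), 2 of 6 tumor and cycling (2.51) and 5 of 8 liver markers (9.05), and called lower were 4 of 10 epithelial (-1.35) and 2 of 10 fat cell markers (-0.57). Summed macrophage markers reached 1064 CPM in lean and 2491 CPM in obese IgG2a libraries, with medians of 669 and 763 CPM. Liver markers summed to medians of 86.7 CPM in lean and 43.0 CPM in obese IgG2a libraries, with an obese maximum of 9554 CPM. Among them, Alb was at 6363 CPM in obese IgG2a 5 and at 17.6 to 66.7 CPM in the rest of that group. The part of these cells in the members' levels was not tested.

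Ifit2 (ENSMUSG00000045932, chromosome 19, 34550694 to 34576419 on GRCm38) encodes a protein that binds RNA and curbs translation. Its CPM were 10.1, 19.4, 19.2, 17.0 and 8.64 in lean IgG2a libraries 1 to 5 and 17.7, 37.0, 21.5, 32.1 and 55.3 in obese IgG2a libraries 1 to 5. The group means were 14.9 ± 5.13 and 32.7 ± 14.8 (SD, n = 5 each), and Ifit2 rose by 1.14 log2 units (SE 0.30, adjusted p = 0.0292 by edgeR). Obese libraries 2, 3, 4 and 5 lay above all lean ones, while obese 1 lay within the lean range. In bulk tissue, more cells of a type and more RNA per cell cannot be told apart. Obese 2, 4 and 5, with the 3 highest values of Ifit2, were also the libraries with the highest Hmga2 of the whole series, while obese 3 held 0.323 CPM of it. The part of tumor or cycling cells in the rise was not tested. Without obese IgG2a 2 and 5, an alternative added after the data were seen, the difference was 0.70 (adjusted p = 0.392). It was 0.23 (0.707) among the libraries with B cell genes and 2.21 (0.036) among those without (0.211% of all genes higher and 0.935% lower there), where a single lean IgG2a library (8.64 CPM) remains and is assumed to vary like the other groups. Leaving out obese IgG2a 2 or 5, or lean IgG2a 1 or 5, each ended the call (adjusted p 0.0644, 0.123, 0.0933 and 0.0908), as did a fit of the 2 groups alone (0.114) and limma on log2(TPM + 1) (0.0508).

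The oligoadenylate synthetase family is named for enzymes that make the short RNA-like messenger that switches on RNase L. It had the highest median of the roles in this comparison (0.95), with all 6 genes above 0 and none called. Oas1g had CPM of 2.24, 2.97, 1.08, 2.32 and 1.54 in lean and 2.56, 12.1, 8.01, 5.56 and 12.5 in obese IgG2a libraries. Only obese library 1 reached into the lean range, and the difference of 2.0 (SE 0.66) had an adjusted p of 0.0773 by edgeR. Oas1a differed by 1.02 (SE 0.39, adjusted p = 0.129). Oas1a and Oas1g are neighbours on chromosome 5 and share most of their sequence: 68.8% of the 31-base words of Oas1a occur elsewhere, nearly all in Oas1g, so how counts were split between them is uncertain. Summed, the pair stood at 17.6 ± 5.45 CPM in lean and 39.7 ± 12.3 CPM in obese IgG2a libraries (SD, n = 5 each).

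Of the ADP-ribosylation group, Parp9 and its partner ubiquitin ligase Dtx3l, which act together, and Parp14, all 3 members had an unadjusted p under 0.05 in this comparison (19.8% of all genes did, and 7 of the 38 members), and none was called. Dtx3l was at 37.6 ± 8.77 CPM in lean and 63.9 ± 23.7 in obese IgG2a libraries (log2 difference 0.76, SE 0.29, adjusted p = 0.126). Parp14 was at 68.1 ± 22.2 and 103 ± 21.9 CPM (0.60, SE 0.23, adjusted p = 0.14). The other roles had smaller medians, still beside 0.12 for all genes. The 5 sensors had a median of 0.35, the 3 transcription factors 0.41, ISG15 and the 4 enzymes and ligases 0.51, and the 5 GTPases and nucleotide enzymes 0.49. Across all members the log2 differences ran from -0.27 (Rtp4) to 2.0 (Oas1g). Obese IgG2a 1, a library with B cell genes, had the lowest obese value of Parp9, Dtx3l and Parp14, and it was the lowest of its group for 23 of the 38 members (23.4% of all genes were lowest there).

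Under anti-PD-1 the same contrast of diet gave a mixed pattern. Of the 38 members, 12 had a fold change above 0 and 26 below (54.7% of all genes tested were above), with a median of -0.19 beside 0.08 for all genes. Parp9 rose and Rtp4 fell, so 2 of 38 were called, beside 10.1% of all genes (5.20% higher and 4.85% lower). Another 6 had an unadjusted p under 0.05, which makes 8 of 38 beside 24.5% of all genes. The groups of every member overlapped, while 1.71% of all genes were higher and 3.11% lower without overlap. On the TPM scale the median turned to 0.21, while that of all genes moved from 0.08 to 0.27, and among libraries with B cell genes it was 0.52. In this comparison, all 10 epithelial markers (median -1.69) and 5 of 8 skeletal muscle markers (-5.54) were called lower in obese mice. Skeletal muscle markers nevertheless summed to like medians, 69.9 CPM in lean and 69.7 CPM in obese anti-PD-1 libraries. Their highest sum was 2677 CPM in the lean group (library 2) and 114 CPM in the obese group. The part of epithelium and muscle in the members' levels was not tested.

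Parp9 (ENSMUSG00000022906, chromosome 16, 35938470 to 35972605) encodes an ADP-ribose binding protein. Its CPM were 50.1, 85.2, 37.3, 37.2 and 49.2 in lean anti-PD-1 libraries 1 to 5. In obese anti-PD-1 libraries they ran from 62.9 to 113 (median 98.0), with the lowest values in the 2 libraries with B cell genes (62.9 and 64.2). Only lean library 2 reached the obese range. Parp9 rose by 0.81 log2 units (SE 0.22, adjusted p = 0.02 by edgeR), from 51.8 ± 19.7 (SD, n = 5) to 90.8 ± 20.1 CPM (SD, n = 8). It was 0.54 (adjusted p = 0.219) among libraries with B cell genes and 0.62 (0.166) among those without, so neither set alone kept the call, and leaving out lean anti-PD-1 3, 4 or 5 ended it too (0.0561, 0.0556 and 0.051). Parp9 shares 458 exon bases (9.4% of its own) with Dtx3l on the opposite strand, and the libraries carry no strand, so reads there could belong to either gene.

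Rtp4 (ENSMUSG00000033355, chromosome 16, 23520291 to 23614222), whose product helps receptors reach the cell surface and curbs flavivirus replication, fell. Its CPM were 22.3, 110.4, 24.0, 36.6 and 30.6 in lean anti-PD-1 libraries 1 to 5 and 11.3, 17.6, 24.8, 30.0, 7.29, 5.48, 23.9 and 19.7 in obese libraries 1 to 8. Lean library 2 was 4.05 times the median of the other lean libraries, and the rest of the lean group overlapped the upper obese values. The log2 difference was -1.35 (SE 0.41, adjusted p = 0.0389 by edgeR), from 44.8 ± 37.1 to 17.5 ± 8.81 CPM. Without lean anti-PD-1 2 it was -0.70 (adjusted p = 0.286), and among the libraries with B cell genes it turned to 0.15 (0.871). Leaving out lean anti-PD-1 4, or obese anti-PD-1 1, 2, 5, 6 or 7, also ended the call (adjusted p 0.073, 0.0861, 0.0772, 0.0688, 0.0629 and 0.0546). So did fits with no filter (0.0609), of the 2 groups alone (0.0766), on log2(TPM + 1) (-0.73, 0.178) and without obese IgG2a 2 and 5 (0.051).

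The IFIT genes Ifit1, Ifit3 and Ifit3b, which bind foreign RNA or help do so, were lower in obese anti-PD-1 mice without passing the adjusted threshold. Ifit3 was at 74.0 ± 73.9 CPM in lean and 31.4 ± 12.4 in obese mice (-1.23, SE 0.41, adjusted p = 0.058). Ifit1 was at 36.3 ± 32.7 and 15.8 ± 4.91 CPM (-1.20, SE 0.44, adjusted p = 0.0881). Lean anti-PD-1 2 alone held 202 CPM of Ifit3 and 90.1 of Ifit1, beside at most 62.9 and 38.6 in the other lean libraries. Without that library the median of the 38 members in this contrast was 0.03.

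**Figure D2:**
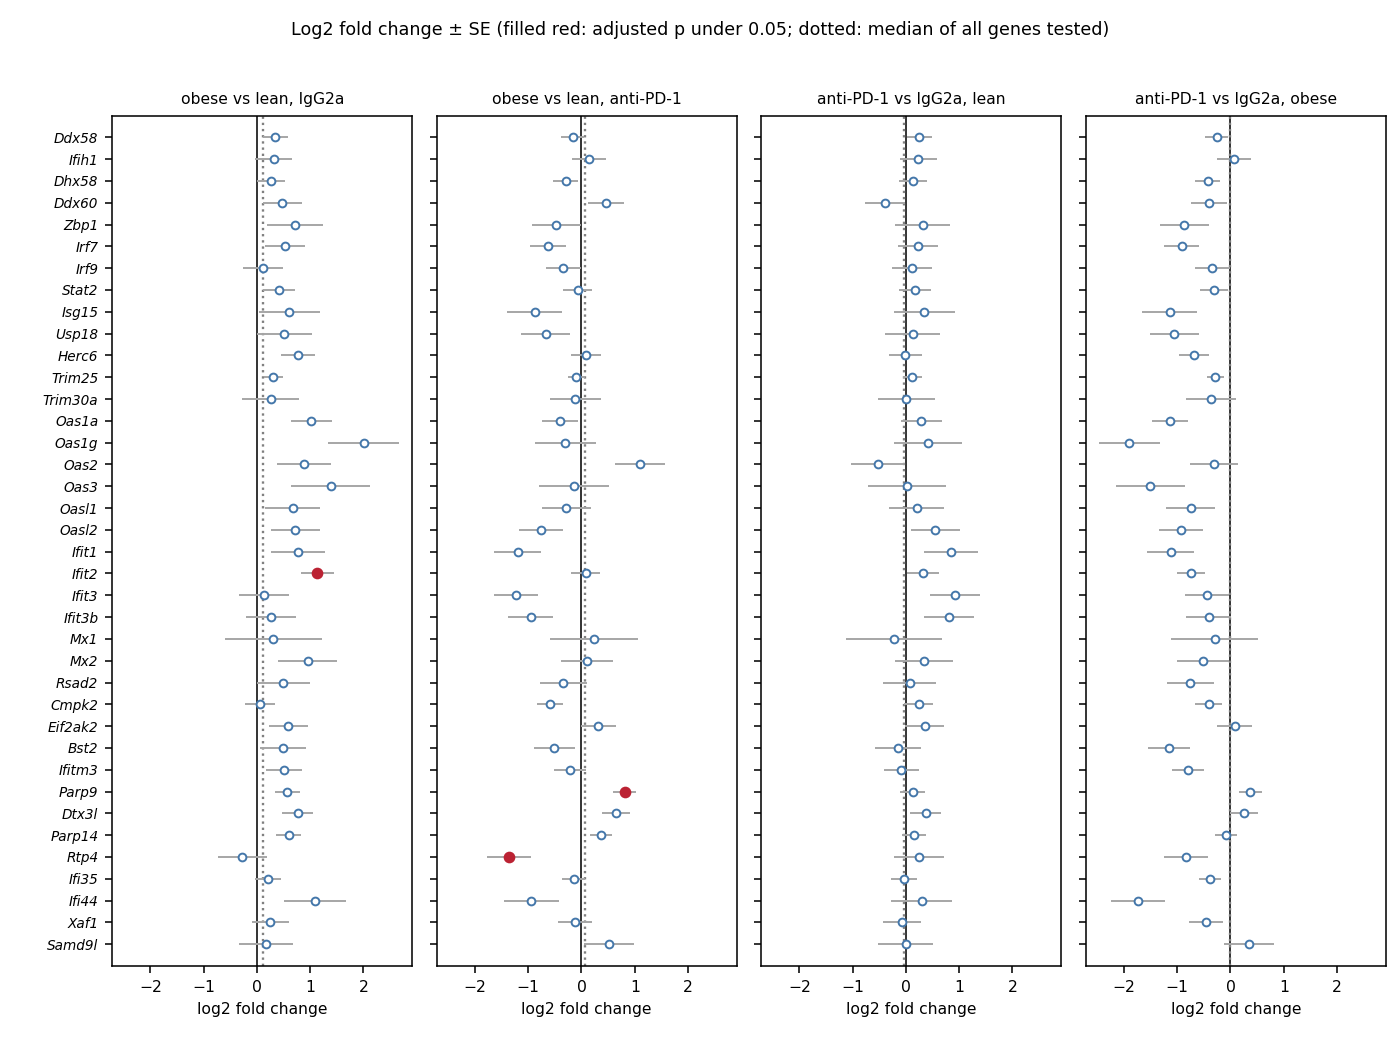
Log2 fold change ± SE of each of the 38 genes (vertical axis) in the 4 comparisons of groups (panels), with called genes in filled red and the median of all genes tested as a dotted line. Ifit2 under IgG2a and Parp9 and Rtp4 under anti-PD-1 are the 3 called values; in obese mice 33 of 38 genes lie below 0 for anti-PD-1 against IgG2a.

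The next comparison asked what anti-PD-1 did in mice of the same diet. In lean mice no member was called, as for all genes (0% called), and none had an unadjusted p under 0.05 (2.37% of all genes did). DESeq2 and voom with quality weights called none of the 38 either (0.112% and 0.00503% of all genes), and every member's groups overlapped (0.181% of all genes were higher and 0.372% lower without overlap). With edgeR, 29 members had a fold change above 0 and the median was 0.18, beside -0.04 for all genes. The median rested on lean anti-PD-1 2, since without that library it was -0.11.

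In obese mice, too, no member was called by edgeR, beside 0.538% of all genes, but the fold changes leaned down. Of the 38, 33 were below 0 and 5 above (49.8% of all genes were above), the median was -0.45 beside -0.0027 for all genes, and 13 had an unadjusted p under 0.05, all of them lower, beside 13.6% of all genes. DESeq2 called 2 members, beside 2.52% of all genes, and voom with quality weights called 15, beside 13.6%. Groups overlapped for all 38, and 0.0553% of all genes were higher, and as many lower, without overlap. By role, all 6 genes of the oligoadenylate synthetase family (median -1.03) and all 5 genes of ISG15 and the ubiquitin ligases (-0.69) lay below 0. So did all 4 IFIT genes (-0.59) and both membrane protein genes (-0.98). Of the ADP-ribosylation group, Parp9 and Dtx3l lay above 0. Of the cell markers, 5 of 8 liver (median -8.30) and 1 of 6 tumor and cycling markers (-2.41) were called lower. The medians of monocyte and neutrophil markers were -1.18 and -1.58 with none called. Liver markers summed to medians of 43.0 CPM in obese IgG2a and 26.2 CPM in obese anti-PD-1 libraries. The highest obese IgG2a sum was 9554 CPM, and Alb stood at 6363 CPM in obese IgG2a 5. The part of these cells in the members' levels was not tested.

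Ifi44, a cytoplasmic protein gene named for its induction by interferon, had the smallest adjusted p in obese mice (0.117, difference -1.73, SE 0.51). Its CPM were 2.71, 17.4, 11.8, 10.4 and 31.9 in obese IgG2a libraries 1 to 5 and 1.49, 5.13, 6.32, 4.93, 4.51, 1.72, 6.95 and 4.61 in obese anti-PD-1 libraries 1 to 8. Obese IgG2a 1 lay inside the anti-PD-1 range, and the other 4 lay above it. Bst2 (ENSMUSG00000046718, chromosome 8, 71534255 to 71537456) had CPM of 205, 148, 249, 73.7 and 67.5 in the IgG2a libraries. In the anti-PD-1 libraries it had 55.6, 51.5, 82.6, 139, 22.4, 17.8, 82.0 and 83.3. Libraries 5 and 6 of anti-PD-1 held the lowest Bst2 of the series, and IgG2a libraries 1 and 3, both with B cell genes, the highest. The difference was -1.15 (SE 0.39, adjusted p = 0.178).

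Isg15 stood at 28.8 ± 13.9 CPM in obese IgG2a and 13.1 ± 8.83 in obese anti-PD-1 libraries (-1.14, SE 0.51, adjusted p = 0.328). Its protease gene Usp18, which also dampens receptor signalling, stood at 22.7 ± 9.43 and 10.9 ± 8.13 CPM (-1.06, SE 0.46, adjusted p = 0.314). Irf7, the factor that amplifies interferon production, stood at 78.8 ± 39.5 and 41.8 ± 17.0 CPM (-0.92, SE 0.33, adjusted p = 0.224). All 3 lay lower on average after anti-PD-1, and in each case the groups overlapped.

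The test of whether anti-PD-1 acted differently in obese and lean mice (the interaction) called no member by edgeR, as it called no gene (0%). The fold change was below 0 for 35 of 38 members, with a median of -0.70 beside 0.02 for all genes. It had an unadjusted p under 0.05 for 8, all lower, beside 7.29% of all genes, and the smallest adjusted p was 0.517 (Ifit1, -1.97, SE 0.67). DESeq2 called none, beside 0.253% of all genes, and voom with quality weights called 4, beside 3.13%. Without lean anti-PD-1 2 the median was -0.41, and among the libraries with B cell genes it was 0.28. This contrast and those within each diet share libraries, so their values are not independent of one another.

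**Figure D3:**
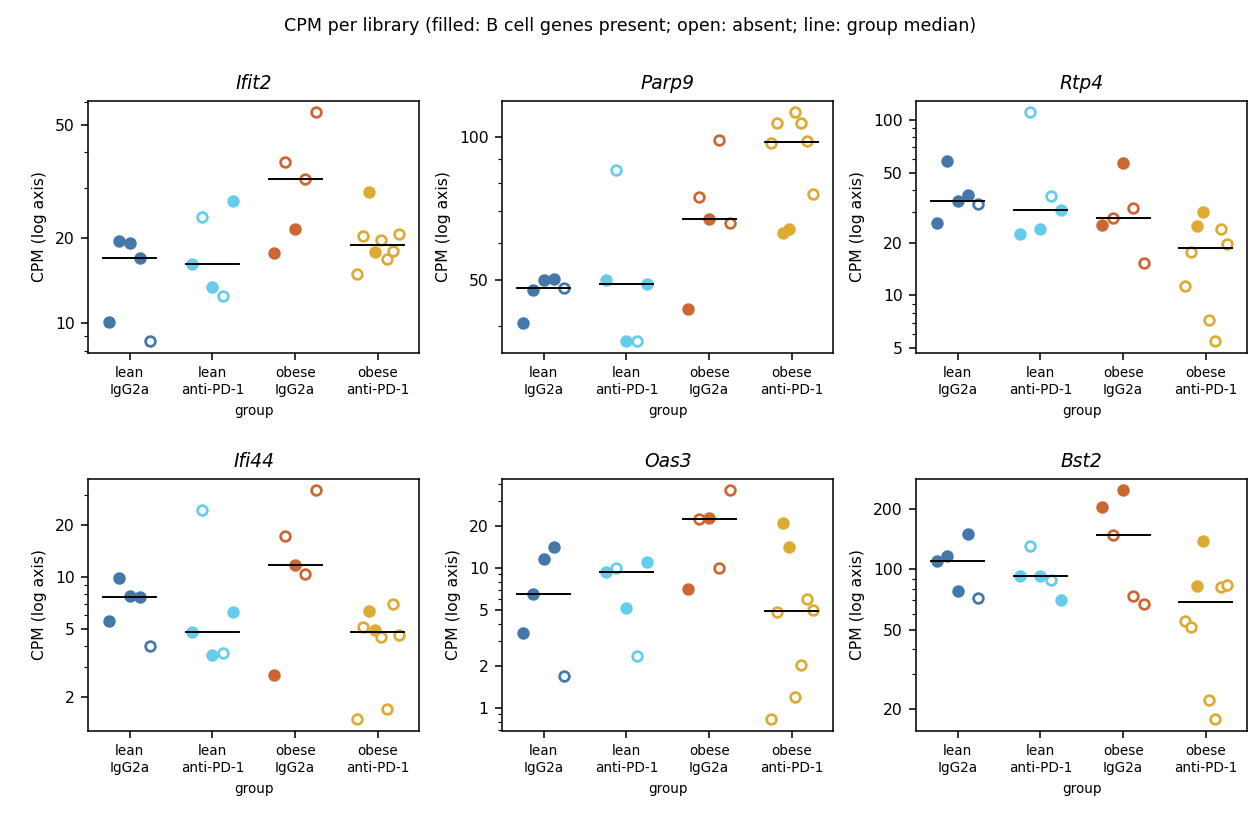
CPM (log axis) of 6 of the genes in each library of the 4 groups, with filled points for libraries with B cell genes, open points for those without, and a line at each group's median. Groups overlap for all 6 genes; the open obese IgG2a points of Ifit2, Ifi44 and Oas3 lie above all 6 open obese anti-PD-1 points.

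Because the libraries with B cell genes were spread unevenly over the groups, the comparisons were repeated within each set. Among the obese libraries without them (3 IgG2a and 6 anti-PD-1), 6 members were lower after anti-PD-1 by edgeR at an adjusted p under 0.05 and none was higher (3.32% and 0.130% of all genes). These were Ifit2 (-1.21, SE 0.24, adjusted p = 0.0168), Oas3 (-2.81, SE 0.64, 0.0319), Oas1a (-1.34, SE 0.33, 0.0451), Ifi44 (-2.32, SE 0.58, 0.0452), Herc6 (-1.24, SE 0.31, 0.0452) and Ifit1 (-1.58, SE 0.39, 0.0453). Herc6 encodes the mouse ligase that attaches ISG15 to proteins. For Ifit2 the 3 IgG2a libraries held 37.0, 32.1 and 55.3 CPM and the 6 anti-PD-1 libraries 14.9 to 20.6. For Oas3 they held 22.3, 9.97 and 35.9 CPM against 0.831 to 5.97.

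In that set, 16 of the 38 members were lower in all 6 anti-PD-1 libraries than in any of the 3 IgG2a libraries and none was higher in all, beside 5.03% and 2.65% of all genes. The 16 were the sensors Ddx58 (RIG-I), Dhx58 and Ddx60, the factors Irf7 and Stat2, the ligases Herc6, Trim25 and Trim30a, and Oas1g, Oas3, Oasl2, Ifit1, Ifit2, Mx2, Rsad2 (viperin) and Ifi44. The 3 IgG2a libraries were also the ones with the most Hmga2. Their summed tumor and cycling markers (6 of 6 detected) ran from 77.3 to 741 CPM, against 19.1 to 43.9 CPM in the 6 anti-PD-1 libraries, and the part of tumor cells in the difference was not tested.

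Among the obese libraries with B cell genes (2 of each antibody) the median was 0.12. The fit of all 11 libraries with B cell genes called no gene for this comparison (0%). The absence of called members there therefore says nothing about them. Herc6 (0.42), Oas3 (0.32) and Ifit2 (0.32) had the opposite sign there. For Ifit2 the IgG2a libraries held 17.7 and 21.5 CPM and the anti-PD-1 libraries 29.0 and 17.8. Whether the antibody effect differed between the sets of libraries was not tested.

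Obese against lean mice under anti-PD-1 also differed within the libraries without B cell genes (6 against 2). There 9 members fell and none rose by edgeR, beside 5.31% and 6.07% of all genes: Rtp4 (-2.44), Ifit3 (-2.22), Ifit1 (-2.14), Usp18 (-1.86), Ifit3b (-1.80), Oasl2 (-1.72), Irf7 (-1.64), Oas1a (-1.39) and Cmpk2 (-1.10). Adjusted p ran from 0.00307 (Irf7) to 0.0388 (Usp18). One of the 2 lean libraries was lean anti-PD-1 2, the library with the highest level of all 9 in its group, and these values were not computed without it. The other was lean anti-PD-1 4, the library with the fewest genes at 10 or more counts (14801).

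Within groups, lean anti-PD-1 2 stood apart. It was the highest of its 5 libraries for 31 of the 38 members, beside 21.8% of all genes, and 19 were over 2-fold above the median of the other 4, beside 10% of all genes. The median log2 ratio of the members to the other libraries was 1.00, beside 0.00 for all genes, and the count of 31 was the same with TPM. Oas1g was 7.20 times the median of the others, Ifit3b 5.92, Ifi44 5.86, Oasl2 5.74, Isg15 5.08, Ifit3 5.00 and Ifit1 4.17 times. Isg15 had CPM of 8.89, 64.9, 10.4, 20.8 and 15.2 in lean anti-PD-1 libraries 1 to 5, and Oasl2 had 19.6, 109.9, 11.5, 26.6 and 18.6.

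The rise in that library did not cover every member. Mx1 was the lowest of the 5 (0.914 CPM, beside 1.25 to 9.58), Samd9l was 0.578 times and Trim30a 0.936 times the median of the others, and Bst2 was 1.45 times. Type I interferon transcripts themselves had no count in this library, as in lean anti-PD-1 4 and 5. Ifng had no count here or in lean anti-PD-1 5. In lean anti-PD-1 2 the interferon gamma target Cxcl9 was the lowest of the group (22.8, beside 32.4 to 55.2 CPM). The library has no B cell genes and the most skeletal muscle markers of its group (8 of 8 detected, 2677 CPM in sum, beside 32.4 to 881). Epithelial markers were also highest of the group in this library (4485 CPM in sum, beside 1222 to 3702). So were fibroblast markers (2092 CPM, beside 818 to 1452). The part of muscle, epithelium or fibroblasts in these levels was not tested.

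Others leaned one way less strongly. Obese anti-PD-1 3, which has B cell genes, was the highest of 8 for 19 of 38 members (23.5% of all genes), among them Samd9l (225 CPM, next 86.6) and Mx1 (24.3, next 10.8), but Rsad2 was the lowest of its group there (9.08 CPM). Lean IgG2a 5 was the lowest of its 5 for 21 members (24.7% of all genes) and obese anti-PD-1 6 the lowest of its 8 for 17 (13.4%).

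**Figure D4:**
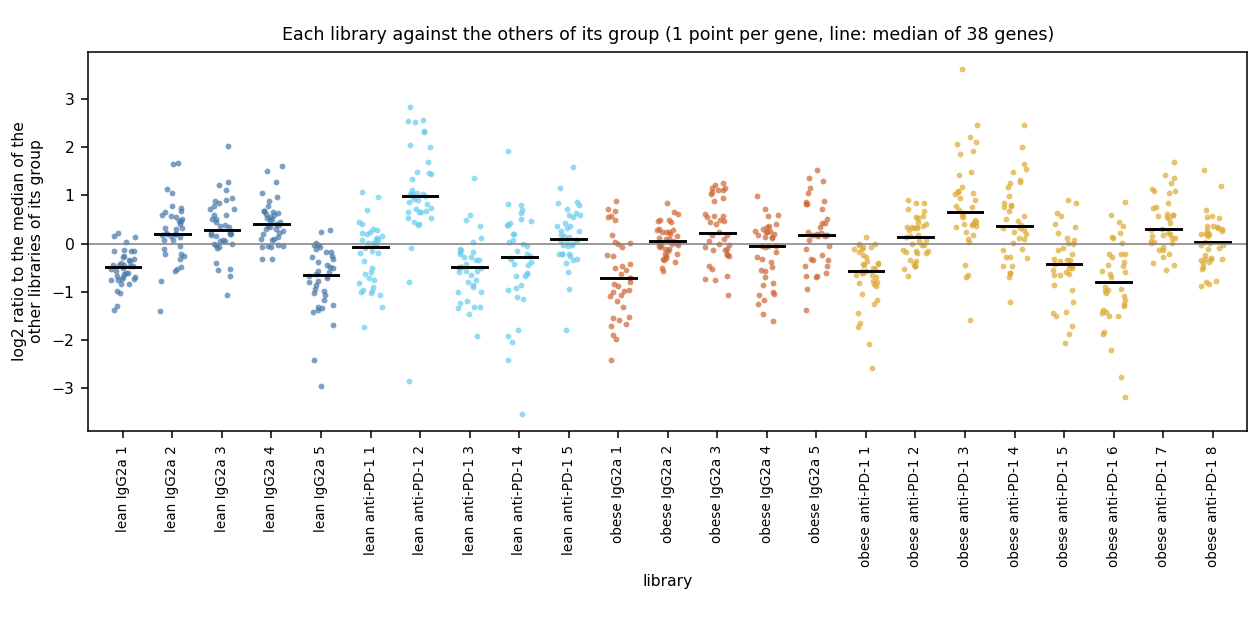
Log2 ratio of each gene's CPM in a library to the median of the other libraries of its group (1 point per gene, line at the median of the 38), for all 23 libraries. Lean anti-PD-1 2 lies highest (median 1.00), with Mx1 as its lowest point.

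Members were called less often than genes as a whole between the libraries with and without B cell genes. The set of libraries was entered as a term beside the 4 groups, a fit added after the data were seen, with the sets defined from the B cell markers of these libraries, none of which is a member. By edgeR, 7 of 38 members were higher and 4 lower in the libraries with B cell genes, beside 21.7% and 21.0% of all genes (42.7% in all). No member's sets were free of overlap, beside 3.06% of all genes higher and 0.453% lower. The median of the members was 0.12, beside -0.05 for all genes.

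The 7 higher members were Mx1 (2.47, SE 0.48, adjusted p = 0.000334), Trim30a (1.45, SE 0.22, 2.22e-05), Oas3 (1.25), the Z-nucleic acid sensor gene Zbp1 (1.09), Samd9l (1.03), Irf9 (0.86) and Bst2 (0.69). Mx1 ranged from 2.50 to 24.3 CPM (median 9.52) with B cell genes and from 0.310 to 9.26 (median 1.60) without. Trim30a ranged from 32.6 to 119 CPM (median 59.7) with them and from 12.1 to 39.4 (median 25.7) without, so the sets overlapped between 32.6 and 39.4 CPM. The 4 lower members were Rsad2 (-1.06), the sensor gene Ifih1 (MDA5; -1.0, SE 0.16, adjusted p = 5.66e-05), Eif2ak2 (PKR, the kinase that halts translation on double-stranded RNA; -0.91) and Parp9 (-0.46). Ifih1 ranged from 13.9 to 35.2 CPM (median 20.9) with B cell genes and from 28.5 to 57.1 (median 39.1) without. Markers of lymph node stroma (8 genes) summed to 371 to 3890 CPM with B cell genes and to 3.32 to 14.3 CPM without. The T cell, plasmacytoid dendritic cell and macrophage lists (10 genes each) also had higher sums with B cell genes. Their summed medians with and without were 874 and 13.1, 599 and 224, and 1027 and 533 CPM, and Siglech, which defines plasmacytoid dendritic cells, was at most 1.71 CPM without. The macrophage marker Adgre1 lay the other way, at 8.80 to 20.3 CPM with B cell genes and 14.3 to 68.0 CPM without, ranges that overlap. The part of these cells in the members' levels was not tested.

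**Figure D5:**
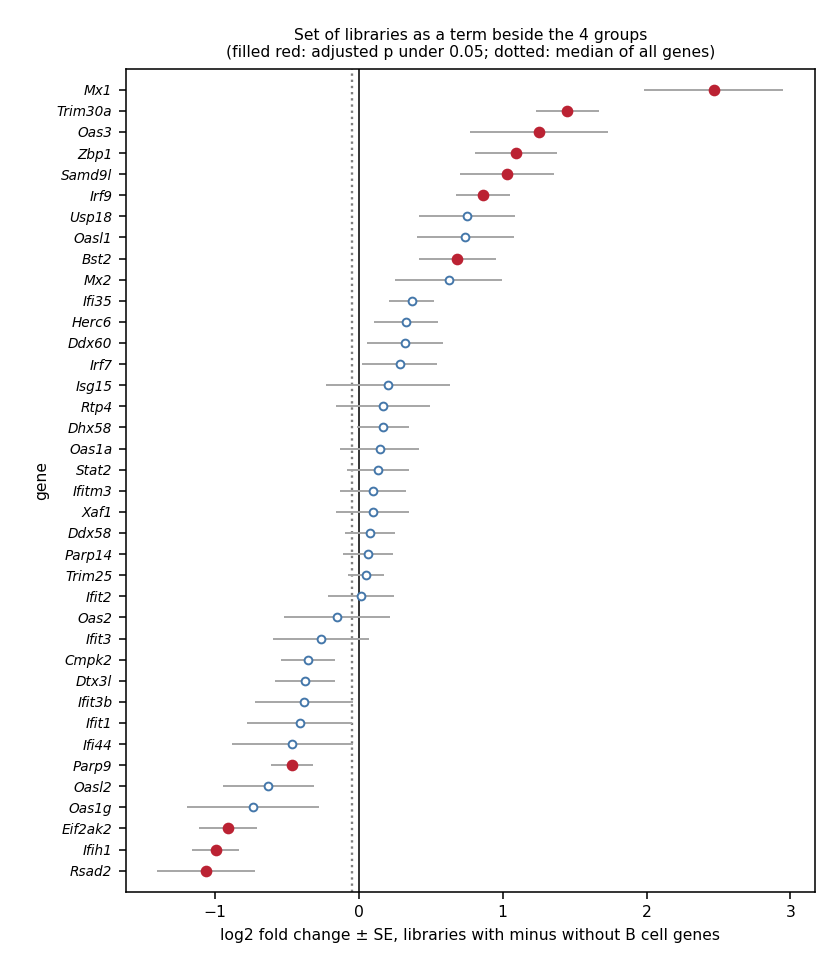
Log2 fold change ± SE of each of the 38 genes for libraries with minus without B cell genes, fitted beside the 4 groups, with called genes in filled red and the median of all genes as a dotted line. The 7 called higher lie between 0.69 and 2.47 and the 4 called lower between -1.06 and -0.46.

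The ligands were hardly detected. Of 18 type I interferon genes, 10 had no count in any library. The sum of all 18 was 0 to 83 counts per library (median 1 count), and Ifnb1, the interferon most tissue cells make first, had 4 counts, all in 1 library. Ifng had counts in 15 of 23 libraries, at most 75, and was the only one of 21 interferon genes to pass the filter. Its mean was 0.228 to 0.443 CPM in the 4 groups, within the spread of the libraries. Transcripts this scarce were at the limit of detection at this depth.

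The receptor and kinase genes (13 of 13 tested) and the genes that lead to interferon production (16 of 16 tested) gave no call in any of the 5 comparisons. Ifnar2 was at 110 ± 16.7 CPM in lean and 77.5 ± 17.9 in obese IgG2a libraries (difference -0.50, SE 0.18, adjusted p = 0.107 by edgeR), while Ifnar1 was at 52.2 ± 8.09 and 57.4 ± 4.72 CPM. Genes known mainly as targets of interferon gamma (21 of 21 tested) gave no call either. Cxcl10, which both interferon types induce, was at 14.9 ± 6.84 CPM in obese IgG2a and 6.70 ± 4.87 in obese anti-PD-1 libraries (-1.15, SE 0.54, adjusted p = 0.354). Irf1 was at 86.7 ± 42.0 and 63.0 ± 37.5 CPM in the same groups. Irf3, the factor that starts interferon production, was at 55.9 ± 21.8 and 53.0 ± 18.8 CPM.

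A second list of induced genes outside the 38 (47 of 48 tested) held the few further calls, 4 for obese against lean IgG2a mice and 3 under anti-PD-1, beside 5.79% and 10.1% of all genes. In obese against lean IgG2a mice, 3 rose (the DNA sensor gene Ifi204 by 1.32, Slfn9 by 2.53 and Mlkl, the executioner of necroptosis, by 1.72) and Ifi27 fell by 1.33. Ifi27 ran from 365 to 796 CPM in lean and 91.1 to 291 CPM in obese IgG2a libraries, which did not overlap (4.42% of all genes were lower without overlap). Under anti-PD-1, Tdrd7 rose by 1.15 while Ifi27 fell by 0.98 and Parp10 by 0.52. Slfn9 and Mlkl varied widely in obese IgG2a libraries (14.5 ± 18.4 and 34.9 ± 30.8 CPM). No gene of that list was called for anti-PD-1 against IgG2a in either diet or in the interaction.

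Several members share sequence with close copies, which can move estimated counts between them. Of the 31-base words of Ifit3, 61.8% also occur in Ifit3b. Summed, the pair was at 49.9 ± 23.1 CPM in lean and 55.9 ± 14.1 in obese IgG2a libraries. Under anti-PD-1 it was at 93.4 ± 94.7 CPM in lean libraries (258 CPM in library 2) and at 41.5 ± 15.7 in obese ones. The shares of words found in other genes were 20.5% for Ifitm3, 13.8% for Herc6, 13.1% for Isg15, 12.5% for Rtp4 (all in the overlapping model Gm45338) and 8.67% for Mx1. For Ifit2, Oas2, Bst2 and Cmpk2 the share was 0%.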

How the data were processed

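The authors deposited, for each of 23 libraries, a table of transcripts with estimated counts and TPM (length-scaled abundance). The sources used here do not name the quantifier. The submitters' processing notes name GRCm38, edgeR and limma, and the kit was not strand-specific per the labels. Effective transcript lengths were the same in all libraries. Of 115088 transcripts, 114200 matched GENCODE M21; the other 888 held at most 0.208% of the deposited counts and were left out. Estimated counts and TPM were summed per gene and counts rounded. Genes were filtered (filterByExpr, minimum count 10), scaled by TMM and tested with edgeR 4.0.16 (quasi-likelihood, R 4.3.3, 1 mean per group, all libraries), with Benjamini-Hochberg adjustment over 19882 genes and a threshold of 0.05. CPM are TMM-scaled. SDs are between libraries, whose counts within a group differed far beyond sampling noise (chi-square per degree of freedom at least 70.3).

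Alternatives were DESeq2 1.42.0, voom with quality weights (limma 3.58.1), no filter, a filter of 1 CPM in 5 libraries, limma on log2(TPM + 1), only the groups compared, a B cell score as covariate, libraries with or without B cell genes only, and each library left out. The members and lists were chosen with earlier results of these data known. All 38 members could be named; values were given for called members, the 3 of smallest p per comparison, the most abundant of each role, members with an outlying library, and some others picked for illustration. The fit was tested on simulated data that varied less between libraries than these do (common biological coefficient of variation 0.805 here). Only large changes in well-counted genes were planted, so that test cannot show how the fit performs at this spread.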

Additional observations from a re-analysis of the deposited data

Results flagged for a closer look

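Of 152 groups of values tested (38 genes in 4 groups), 22 held a sample far from the others by Dixon's test at the 95% level. Chance flags about 1 in 20 groups at that level where values are normally distributed. CPM were tested without a log scale, so the rate by chance may differ here. Genes of 1 library are not independent, so the flags count few events.

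Lean anti-PD-1 2 gave 12 of them, all high. It held 202 CPM of Ifit3 (next 62.9), 181 of Ifitm3 (next 102), 110.4 of Rtp4 (next 36.6) and 109.9 of Oasl2 (next 26.6). It held 86.2 of the sensor Ddx58 (next 50.4), 85.2 of Parp9 (next 50.1), 64.9 of Isg15 (next 20.8) and 55.9 of Ifit3b (next 16.6). It also held 38.4 of Xaf1 (next 17.4), 35.5 of Usp18 (next 15.4), 31.4 of Dhx58 (next 16.7) and 24.6 of Ifi44 (next 6.30).

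Obese anti-PD-1 3, a library with B cell genes, gave 5, all high. They were Samd9l at 225 CPM (next 86.6), Ddx58 at 82.1 (next 51.2), Ifit2 at 29.0 (next 20.6), Mx1 at 24.3 (next 10.8) and Oasl1 at 17.0 (next 7.31).

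The other 5 were spread over 4 libraries. Lean IgG2a 2 was high for Rsad2 (68.0 CPM, next 25.3) and Ifit3b (20.2, next 9.91), and obese IgG2a 3 was high for Irf7 (149, next 67.0). Obese IgG2a 1 was low for Oasl2 (16.6, next 44.5) and lean IgG2a 1 was low for Parp9 (40.7, next 47.6).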

How the results depend on the processing

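Leaving out 1 library at a time, the members called ran from 0 to 3 for obese against lean under IgG2a, from 0 to 4 under anti-PD-1, from 0 to 0 for anti-PD-1 in lean mice, from 0 to 1 in obese mice and from 0 to 0 for the interaction. In that order the members' median ran from 0.41 to 0.64, -0.36 to 0.03, -0.11 to 0.32, -0.73 to -0.36 and -0.86 to -0.41. The genes called ran from 495 to 1662, 1108 to 2432, 0 to 0, 0 to 643 and 0 to 1, against 1152, 1999, 0, 107 and 0 with all libraries. DESeq2 called 2, 3, 0, 2 and 0 members and 2075, 3117, 22, 400 and 50 genes. Voom with quality weights called 9, 5, 0, 15 and 4 members and 4883, 6392, 1, 2704 and 623 genes, and it moved the median of all genes for obese against lean IgG2a from 0.12 to -0.00.

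For obese against lean anti-PD-1, 1 member was called with no filter, 4 on log2(TPM + 1), 1 with only the groups compared, 0 with B cell genes, 9 without them, and 1 without obese IgG2a 2 and 5. For obese against lean IgG2a, 3 were called with the B cell covariate and 0 without obese IgG2a 2 and 5. For anti-PD-1 in obese mice 6 were called without B cell genes. Genes called moved to 583 (only the groups compared), 2921 (covariate), 1896 (with B cell genes), 255 (without) and 293 (without obese IgG2a 2 and 5) for obese against lean IgG2a. They moved to 3607 (TPM) and 574 (with B cell genes) for obese against lean anti-PD-1. For anti-PD-1 in obese mice they moved to 70 (no filter), 49 (stricter filter), 0 (TPM, only the groups compared, with B cell genes, or without obese IgG2a 2 and 5), 606 (covariate) and 767 (without B cell genes). In lean mice they were 1 with only the groups compared and 2 without B cell genes, and for the interaction 2 without B cell genes. The cause was not tested.

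Among libraries with B cell genes the median of the members was 0.52 for obese against lean anti-PD-1, 0.12 for anti-PD-1 in obese mice and 0.28 for the interaction. Without B cell genes it was 1.11 for obese against lean IgG2a, -0.86 under anti-PD-1, 0.85 for anti-PD-1 in lean mice and -1.63 for the interaction. Single genes changed sign mostly among libraries with B cell genes. For obese against lean anti-PD-1 these were Ifit1 (0.0084), Ifit3 (0.088) and Rtp4 (0.15). For anti-PD-1 in lean mice they were Ifit1 (-0.23), Ifit3 (-0.18) and Ifit3b (-0.26), and in obese mice Herc6 (0.42), Oas3 (0.32) and Ifit2 (0.32). For the interaction they were Oas1g (0.26), Oasl2 (0.35), Ifit1 (0.10), Ifit2 (0.14), Ifit3 (0.055) and Ifi44 (0.38). Ifit3b in lean mice also turned to -0.11 with voom and to -0.11 without lean anti-PD-1 2, within a range of -0.11 to 1.19 when each library was left out. Of the other values of single genes, 319 kept direction and side of the threshold, 38 passed it newly and 10 no longer passed it, and leaving out 1 library gave 534, 8 and 14.

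No paired analysis was made, since the labels carry no replicate numbers and name no pairs of libraries between the groups. The sets of libraries with and without B cell genes leave few libraries in some groups (1 lean IgG2a without them), which limits those fits.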
